A study of Mus musculus with 8 samples.

Results

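The fibroblast growth factor (FGF) and insulin-like growth factor genes described here were Fgf7, Fgf10, Fgf18, Fgf21, the receptor genes Fgfr1, Fgfr2 and Fgfr3, and Igf1. They were taken by name as 8 of the 55487 genes of the mRNA count table, because they stand for signals that pass between fibroblasts and thymic epithelial cells (TEC). The study combined counts of mRNA and of antibody tags in single thymic stromal cells (CITE-seq). Stroma was isolated from C57BL/6 mice aged 1 or 16 weeks, for which the labels name no transgene and no treatment, depleted of CD45-positive cells and sorted so that EpCAM1-positive, mostly epithelial cells outnumbered EpCAM1-negative cells. Thymi of several mice of an age were pooled and loaded on 2 wells, each of which gave 1 library, so there was 1 pool per age and the wells of an age are repeats of the capture and not different animals. Age and pool therefore cannot be told apart, no p-value is given between ages, and intervals for counts and ratios cover counting error only.

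FGFs are secreted or hormone-like ligands that bind receptor tyrosine kinases with the help of heparan sulphate proteoglycans on the cell surface. In the thymus, mesenchymal FGF7 and FGF10 are known to act on the epithelial isoform of FGFR2 and to support growth of TEC, and IGF1 is a growth factor with its own receptor. FGF21 is best known as a liver hormone that needs the co-receptor beta-Klotho, and mature medullary TEC (mTEC) are known to transcribe many genes whose products are otherwise restricted to other organs.

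The members lie on 7 chromosomes of GRCm38 (GENCODE M21). Fgf7 spans chr2:126034658-126091185 on the plus strand, Fgf10 chr13:118669791-118792115 on the plus strand, Fgf18 chr11:33117430-33147400 on the minus strand and Fgf21 chr7:45613886-45615490 on the minus strand. Fgfr1 lies at chr8:25513654-25575718 (plus), Fgfr3 at chr5:33721674-33737068 (plus) and Igf1 at chr10:87858265-87937042 (plus). Fgfr2 is annotated at chr7:130162451-133123350 (minus), a span that runs across 36 other genes of that strand, with exons that overlap exons of Ctbp2 alone, and RefSeq ends it at 130266808. Reads in the overlap with Ctbp2 cannot be assigned to one of these genes, and the Fgfr2 levels given here may hold UMIs of Ctbp2 in any class, since the annotation the authors counted with was not checked for this overlap. The counts came from the 3′ ends of transcripts, so isoforms of Fgfr2 were not separated and levels were compared between cells for the same gene, never between genes.

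RefSeq promoter windows, each with 250 bases before and 50 after a transcript start, were found for 7 of the 8 members in 8 windows, with Fgfr1 missing. The windows of the fibroblast ligands Fgf7 and Fgf10 and of Fgf21 and Igf1, both abundant in mature mTEC, are shown because the results turn on where these genes were transcribed. They are written 5′ to 3′ on the gene's own strand, and capitals mark matches on either strand to the CCAAT box, to the TATA box in the form TATAAA, to the E-box CACGTG and to the amino acid response element in the form TTGCATCA.
Fgf7, chr2:126034408-126034707, plus strand: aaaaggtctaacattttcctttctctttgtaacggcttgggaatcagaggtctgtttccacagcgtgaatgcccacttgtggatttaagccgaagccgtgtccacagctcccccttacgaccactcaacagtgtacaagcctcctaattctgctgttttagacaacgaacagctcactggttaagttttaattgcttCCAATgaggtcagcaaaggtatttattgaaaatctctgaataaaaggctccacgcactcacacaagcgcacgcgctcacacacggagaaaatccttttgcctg
Fgf10, chr13:118714449-118714748, plus strand: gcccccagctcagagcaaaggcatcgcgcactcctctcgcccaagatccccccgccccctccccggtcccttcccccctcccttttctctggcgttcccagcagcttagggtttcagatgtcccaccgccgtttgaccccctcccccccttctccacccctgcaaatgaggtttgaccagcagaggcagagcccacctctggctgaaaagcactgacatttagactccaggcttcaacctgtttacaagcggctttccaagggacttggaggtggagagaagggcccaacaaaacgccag
Fgf21, chr7:45615441-45615740, minus strand: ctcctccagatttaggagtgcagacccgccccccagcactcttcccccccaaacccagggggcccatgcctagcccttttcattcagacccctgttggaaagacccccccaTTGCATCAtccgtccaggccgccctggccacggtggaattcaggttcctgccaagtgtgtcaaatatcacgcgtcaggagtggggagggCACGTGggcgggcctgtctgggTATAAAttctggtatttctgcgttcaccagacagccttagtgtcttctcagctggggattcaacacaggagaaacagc
Igf1, chr10:87860861-87861160, plus strand: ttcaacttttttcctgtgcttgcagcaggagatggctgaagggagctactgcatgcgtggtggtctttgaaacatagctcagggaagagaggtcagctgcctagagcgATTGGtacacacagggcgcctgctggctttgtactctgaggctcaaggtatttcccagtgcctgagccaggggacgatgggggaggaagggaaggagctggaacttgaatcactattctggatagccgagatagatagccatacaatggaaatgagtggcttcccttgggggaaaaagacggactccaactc

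The windows of Fgf10 and Fgf18 held none of these motifs. Fgf21 held TATAAA 28 bases before its start, CACGTG 50 bases before it and TTGCATCA 139 bases before it. Over all 32851 RefSeq windows of this length, TATAAA was found in 13.6%, CCAAT in 37.4%, CACGTG in 7.15% and TTGCATCA in 0.895%. CCAAT, or its reverse ATTGG, was present for Fgf7, Igf1 and Fgfr3, and CACGTG for Fgf21 and Fgfr2. A match is a description of the letters and not evidence of a bound factor.

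The 4 mRNA libraries held 9953 cells and between 21281389 and 45480790 unique molecular identifiers (UMIs, each standing for 1 captured transcript), and 15 cell barcodes occurred in more than 1 library. Cells were clustered on genes other than the members and the pathway genes named below, so that these did not decide the classes. The class of cortical TEC (cTEC) held 1310 cells at 1 week and 255 at 16 weeks, intertypical TEC 127 and 1813, mature mTEC 142 and 929, and fibroblasts 341 and 1682. A further 198 and 392 epithelial cells were given no class name and were kept apart as unnamed TEC, outside the TEC classes compared below. Most markers matched the names of the classes. Pdgfra, a fibroblast receptor, was at 321 and 431 CPM (UMIs of a gene, scaled so that all class totals are equal) in fibroblasts and at most 10.3 in cTEC and intertypical TEC, Psmb11, the thymoproteasome subunit of cTEC, was at 922 and 870 CPM in cTEC, and Ccl21a reached 10780 and 11050 CPM in intertypical TEC. Aire, the regulator of tissue-restricted genes in mTEC, was at 475 and 898 CPM in mature mTEC and at most 77.8 CPM in cTEC. Among the 7 intertypical TEC markers Ccl11 and Pdpn were not particular to that class, since Ccl11 was at 601 and 836 CPM in fibroblasts and at 23.4 and 848 CPM in intertypical TEC, and Pdpn at 99.5 and 154 against 135 and 84.6 CPM. Psmb11 was also at 98.5 CPM in 1-week and 7.55 CPM in 16-week fibroblasts, and the part of free RNA and of doublets that were not removed was not tested.

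The first comparison asked which members were transcribed by fibroblasts and which by TEC. Of the 8 members, 5 were higher in fibroblasts than in TEC (the mean of cTEC, intertypical and mature mTEC) and 2 were lower, at an adjusted p under 0.05 in edgeR's quasi-likelihood test with Benjamini-Hochberg adjustment over 16269 genes. Over all genes tested, 21.6% were higher and 18.3% lower in fibroblasts. The fit used 12 sums of UMIs, 1 for each of 6 cell classes in each pool, with the pool as a block.

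Fgf10, the ligand of FGFR2 that is required for early thymic growth, separated the classes most sharply among the members. In fibroblasts it was at 81.8 and 62.5 CPM in the 1-week wells and at 49.0 and 37.7 CPM in the 16-week wells, whereas no well of cTEC, intertypical TEC or mature mTEC exceeded 2.14 CPM. Fibroblasts and these TEC classes did not overlap in any well, and the difference was 5.79 ± 0.326 (log2, SE; adjusted p = 4.76e-07). Unnamed TEC, outside the fit, held Fgf10 at 9.44 and 22.2 CPM in the 1-week wells and at 0.709 and 0.656 CPM in the 16-week wells. One of their clusters, of 201 cells, was led by the fibroblast markers Col1a1, Col1a2 and Col3a1, and the part of fibroblast RNA in it was not tested. Fgf7, also called keratinocyte growth factor, was at 19.7 and 16.2 CPM in 1-week and 30.5 and 24.2 CPM in 16-week fibroblasts. Its level in the 3 TEC classes ran from 0 to 5.62 CPM per well, and the difference was 4.18 ± 0.495 (adjusted p = 8.70e-05). Endothelial and mural cells held both ligands at no more than 6.05 CPM in any well, so that fibroblasts were the only class of the fit with more than that.

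Fgf18, a ligand known from cartilage and lung development, was at 16.2, 14.6, 6.59 and 3.61 CPM in the 1-week and 16-week fibroblast wells and at most 3.04 CPM in a TEC well. The difference was 3.01 ± 0.407 (adjusted p = 3.30e-04). At 16 weeks alone the fibroblast pool held 4.57 CPM, against 1.39 CPM in cTEC, 0.568 CPM in intertypical TEC and 1.15 CPM in mature mTEC. Mesothelial cells, which were outside the fit, carried Fgf18 at 12.4 and 19.1 CPM in the 1-week wells (87 cells).

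Fgf21 had the opposite order. Mature mTEC held 115 and 162 CPM at 1 week and 388 and 269 CPM at 16 weeks, against 4.71 to 18.6 CPM in the fibroblast wells, and the difference between fibroblasts and TEC was -2.12 ± 0.286 (adjusted p = 2.11e-04). Between TEC, cTEC were lower than mature mTEC by -3.35 ± 0.324 (adjusted p = 7.14e-05). The class of mature mTEC joined 2 clusters, each with all 7 mature mTEC markers present. In the one of 549 cells led by Saa3, Lypd8, Reg1, Nos2 and the marker Cd52, Fgf21 was at 48.3 CPM (34.8 to 65.3) at 1 week and 91.8 CPM (83.7 to 100.5) at 16 weeks. In the other, of 522 cells led by Calca, Pyy, Gm7861 and S100a8 and without a marker among its 10 leading genes, it was at 216 CPM (188 to 247) and 560 CPM (538 to 582). In endothelial and mural wells Fgf21 lay between 6.05 and 29.3 CPM, which overlaps the range of fibroblasts and cTEC, and the part of free RNA in those classes was not tested.

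**Figure D1:**
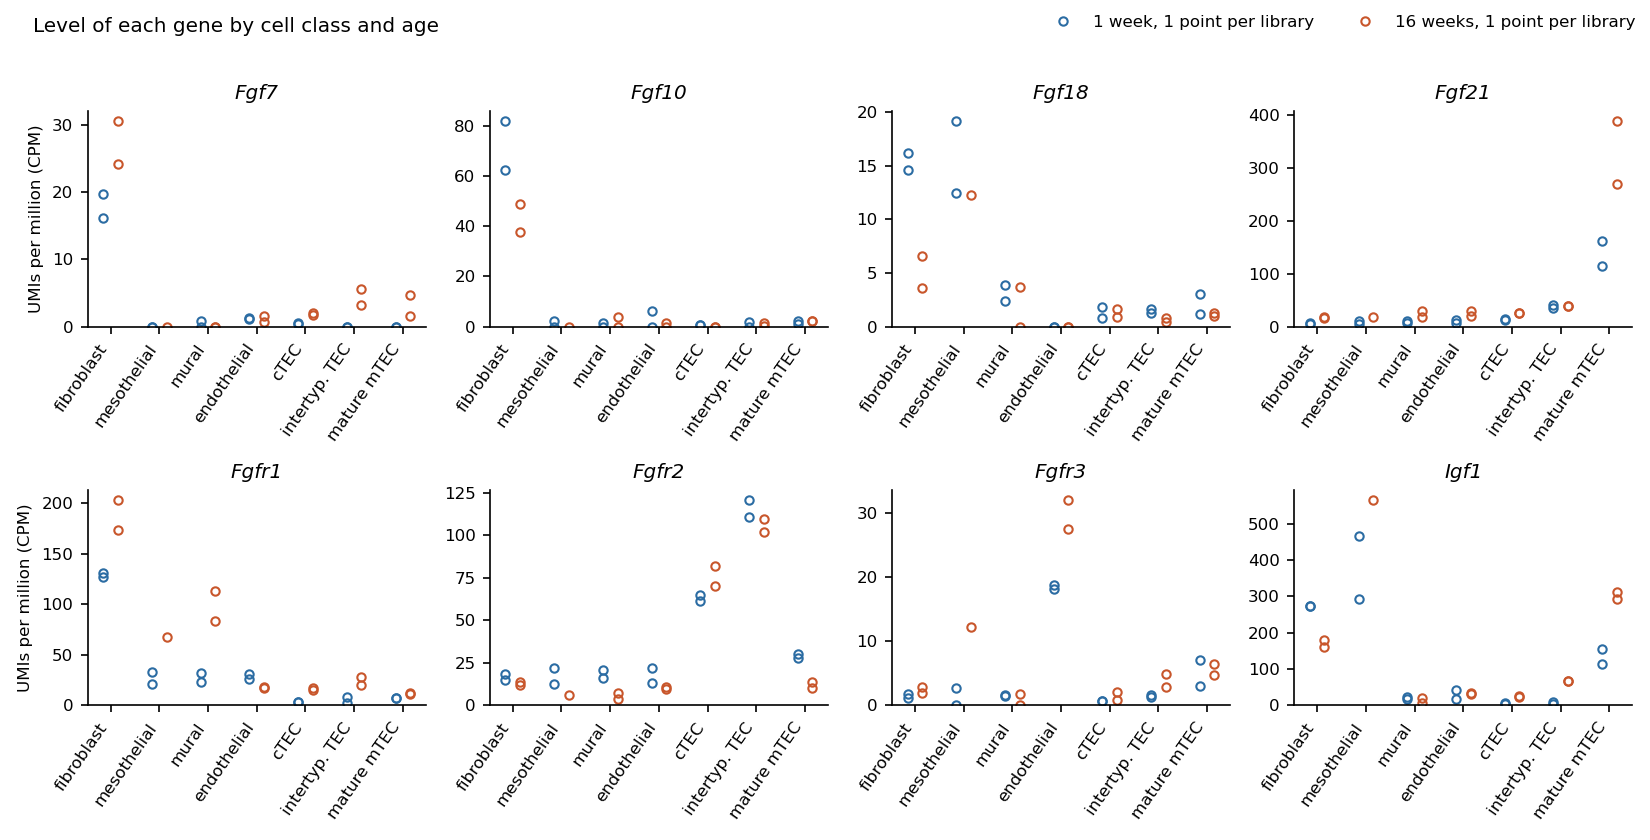
Level of each member in CPM (vertical axis, linear, with its own scale for each gene) in 7 cell classes, with 1 point per library, 1 week in blue and 16 weeks in orange. Fgf7, Fgf10 and Fgfr1 are highest in fibroblasts, Fgf21 in mature mTEC, Fgfr2 in intertypical TEC and then cTEC, and Fgfr3 in endothelial cells, while Igf1 is high in mesothelial cells, fibroblasts and mature mTEC.

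The receptors fell on both sides. Fgfr2, the receptor of FGF7 and FGF10, was at 110.5, 120.6, 109.5 and 101.7 CPM in the 1-week and 16-week wells of intertypical TEC and at 61.3, 64.6, 82.0 and 70.2 CPM in cTEC. Mature mTEC held only 30.4, 28.1, 10.4 and 13.9 CPM and overlapped with fibroblasts, which had 18.5, 14.9, 13.7 and 12.01 CPM. Fibroblasts were lower than TEC by -1.70 ± 0.254 (adjusted p = 4.09e-04), and cTEC exceeded mature mTEC by 1.96 ± 0.300 (adjusted p = 6.94e-04). The cells named haematopoietic also held Fgfr2, at 52.5 CPM at 1 week and 60.6 CPM at 16 weeks, together with Psmb11 at 1105 and 528 CPM, and the part of TEC RNA in them was not tested.

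Fgfr1, which is typical of mesenchyme, was at 127 and 131 CPM in 1-week and 203 and 173 CPM in 16-week fibroblasts. TEC wells held between 2.51 and 28.1 CPM, and the difference was 4.16 ± 0.371 (adjusted p = 1.20e-05). Mural cells held 32.2 and 23.0 CPM at 1 week and 113.5 and 83.4 CPM at 16 weeks, above the TEC wells at that age and below the fibroblasts.

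Fgfr3 was rare in fibroblasts and TEC alike, at 1.22 to 2.80 and 0.617 to 7.03 CPM per well. The difference between them was -0.33 ± 0.376 (adjusted p = 0.523), which does not show equal levels. Endothelial cells held 18.8, 18.2, 31.9 and 27.5 CPM, above every well of fibroblasts, mural cells and the 3 TEC classes. In mature mTEC Fgfr3 was higher than in cTEC, with a difference of -2.23 ± 0.483 (cTEC minus mature mTEC; adjusted p = 4.23e-03) that rests on 23 UMIs in cTEC and 65 in mature mTEC.

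Igf1, which encodes the insulin-like growth factor, was high in 2 of the 6 classes of the fit, fibroblasts and mature mTEC. Fibroblasts held 274 and 273 CPM at 1 week and 180 and 161 CPM at 16 weeks. In mature mTEC the wells were at 113, 156, 313 and 294 CPM, so that at 1 week fibroblasts were above mature mTEC in both wells and at 16 weeks below them in both. Against TEC as a whole fibroblasts were higher by 2.65 ± 0.493 (adjusted p = 1.70e-03). Mesothelial cells, outside the fit, held Igf1 at 467 and 294 CPM in the 1-week wells and at 565 CPM (456 to 693) in the 15 cells of 16 weeks. Intertypical TEC and cTEC held less, and cTEC were lower than mature mTEC by -4.002 ± 0.713 (adjusted p = 1.52e-03).

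**Figure D2:**
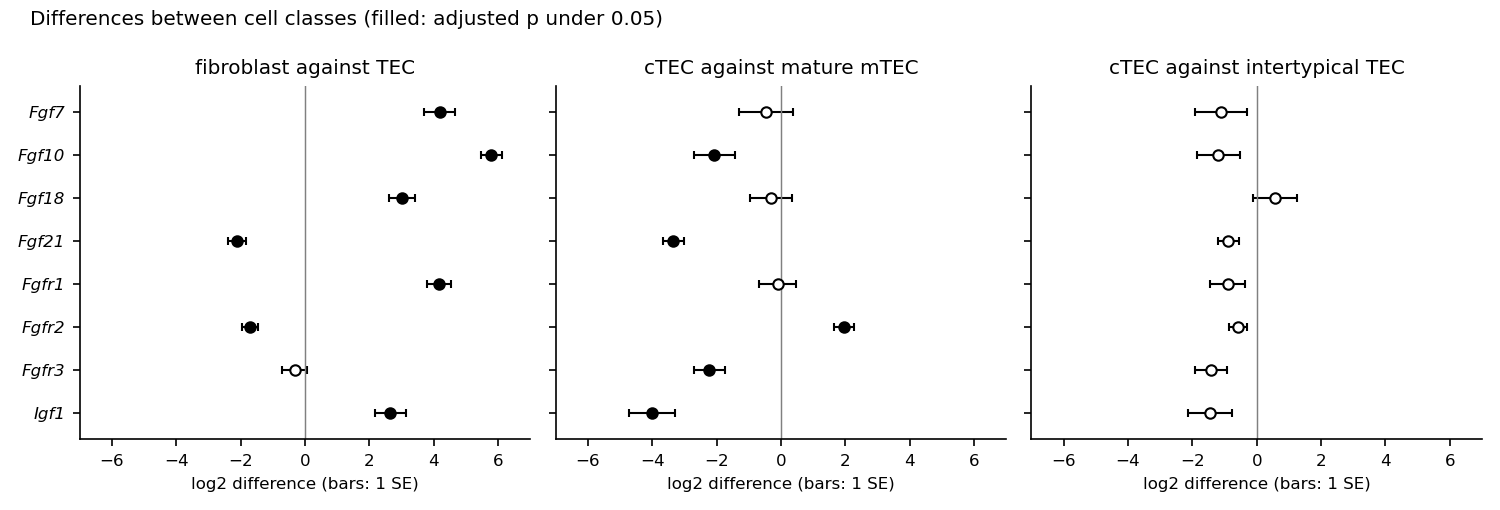
Log2 difference of each member in the 3 comparisons between cell classes, with bars of 1 SE and filled points for an adjusted p under 0.05. In fibroblasts against TEC 5 filled points lie above 0 and 2 below, in cTEC against mature mTEC 1 lies above and 4 below, and in cTEC against intertypical TEC no point is filled.

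Within TEC, cTEC and mature mTEC differed in 5 members, with Fgfr2 higher in cTEC and Fgf21, Igf1, Fgfr3 and Fgf10 lower. Over all genes 21.5% (3500) were higher and 23.2% (3776) lower in cTEC, and with DESeq2's size factors 2409 were higher and 4289 lower, with the same number of members in each direction. The Fgf10 difference (-2.07 ± 0.636, adjusted p = 0.0231) concerned 17 UMIs in cTEC and 23 in mature mTEC. The call was lost without the second 1-week well (adjusted p = 0.073), without the second 16-week well (0.0817) and without the pool as a block (0.0832). Fgf7, Fgf18 and Fgfr1 did not pass the test, with adjusted p values of 0.684, 0.729 and 0.907.

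None of the 8 members passed the test between cTEC and intertypical TEC, where 4.68% of genes were higher and 4.19% lower in cTEC and 3929 genes had an unadjusted p under 0.05. For Fgfr2 the difference was -0.59 ± 0.275 (adjusted p = 0.221), although every intertypical well lay above every cTEC well. The difference for Igf1 was -1.47 ± 0.685 (adjusted p = 0.224), that for Fgf21 -0.88 ± 0.325 (adjusted p = 0.124) and that for Fgfr3 -1.43 ± 0.497 (adjusted p = 0.107). With the libraries in place of the pools as the units and as the block, 6 of 7 members tested passed in the lower direction. Over all 13110 genes tested there, 16.9% were lower and 14.5% higher. Fgfr2 had an adjusted p of 0.00608 in that fit, but wells of 1 pool are not separate animals.

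Classes set from the surface tags alone, without any mRNA, gave the same direction in every library for each member called between fibroblasts and TEC. These classes were mixed. Of the fibroblasts, 1303 were EpCAM1-negative and CD31-negative, 603 were CD31-positive and so left out, and 117 were EpCAM1-positive. The negative class also held 210 cTEC and 260 mural cells. EpCAM1-negative, CD31-negative cells exceeded EpCAM1-positive cells in Fgf10 by 4.43, 4.83, 4.39 and 3.43 (log2) in the 4 libraries and in Fgf7 by 3.74, 3.87, 2.53 and 2.38. Fgfr2 was lower in them by -1.34, -1.85, -1.49 and -1.36. For Igf1 the 1-week libraries gave 3.44 and 3.30 and the 16-week libraries 0.34 and 0.14, where EpCAM1-positive cells held 127 and 139 CPM.

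The next comparison set 16 weeks against 1 week within each class. A member was called when the pools differed at least 2-fold, both wells of one age lay above both of the other, and the class held at least 20 UMIs of it. In fibroblasts all 8 members reached 20 UMIs, 1 was called lower and 1 higher at 16 weeks, against a background of 7.83% lower and 10.1% higher among 15958 genes. The wells of the ages did not overlap in any of the 8, as in 65.6% of all 15958 genes.

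Fgf18 was the member that fell in fibroblasts, from 15.4 CPM (95% interval 12.6 to 18.7) at 1 week to 4.57 CPM (3.66 to 5.65) at 16 weeks. It was 3.37-fold lower (95% interval 2.51 to 4.54). Fgf10 was at 72.3 CPM at 1 week and at 41.3 CPM at 16 weeks, a ratio of 0.571 (0.509 to 0.642) that did not reach the 2-fold limit. For Fgf7 the order was reversed, with 18.0 CPM at 1 week and 26.2 CPM at 16 weeks and a ratio of 1.46 (1.19 to 1.80). The main fibroblast ligands of FGFR2 thus lay on opposite sides of a ratio of 1, both within 2-fold.

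Igf1 in fibroblasts was at 273 and 167 CPM, a ratio of 0.610 (0.576 to 0.647). Fgfr1 was at 129 and 183 CPM, a ratio of 1.42 (1.31 to 1.53), and Fgfr2 at 16.8 and 12.6 CPM, a ratio of 0.749 (0.595 to 0.946). None of the 3 reached the 2-fold limit. The 8 cTEC markers stood in fibroblasts at medians of 10.4% and 1.28% of their cTEC level at 1 and 16 weeks. Their part in the Fgfr2 ratio was not tested.

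Fgf21 was called higher in 16-week fibroblasts, at 5.84 and 17.8 CPM (ratio 3.05, 2.19 to 4.37). This was 4.26% and 5.82% of its level in mature mTEC of the same age, and the 7 mature mTEC markers stood in fibroblasts at a median of 2.97% and 5.89% of their own mature mTEC level (range 1.55% to 5.82% and 5.12% to 7.79%, none at 0). Fgf21 was also at 8.95 and 22.2 CPM in endothelial and at 8.57 and 22.1 CPM in mural cells at 1 and 16 weeks. Their part in the Fgf21 result was not tested. As a mean over cells of each cell's share of UMIs the log2 ratio was 0.73 and the call was lost.

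Per cell, thinned to 2000 UMIs, Fgf10 was found in 11.4% of fibroblasts at 1 week (95% exact binomial interval 8.26% to 15.3%) and in 6.24% at 16 weeks (5.13% to 7.51%). Before thinning the shares were 42.8% and 22.6%, at median depths of 20250 and 11288 UMIs. No thinned endothelial cell held an Fgf10 UMI (0 of 141 and 0 of 264 cells, which allows shares of cells with a UMI at this depth of up to 2.58% and 1.39% by the exact binomial interval), and before thinning these cells held 5 and 2 Fgf10 UMIs. Fgf18 was found in 2.64% and 0.595% of thinned fibroblasts, Fgf7 in 3.81% and 4.34%, Igf1 in 29.0% and 21.2% and Fgfr1 in 27.3% and 29.9%. Endothelial cells held no Fgf18 UMI, Fgf7 at 1.19 and 0.964 CPM, Igf1 at 29.8 and 31.8 CPM and Fgfr1 at 28.6 and 17.8 CPM. The part of free RNA in the shares was not tested. For Fgf7 the order of the unthinned shares, 19.6% and 16.6%, was the reverse of the thinned one, so no order was read from them.

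Fibroblasts did not form one population, and the ages did not share clusters. Of 10 clusters, 2 held the 1-week and 8 the 16-week cells, with 1 cell of each age in a cluster of the other, so that the age comparison in fibroblasts is also one between different clusters. Among the 16-week clusters Fgf7, Fgf10 and Igf1 were highest in one of 201 cells led by Inmt, Cpxm2, Sfrp1 and Epyc, which carried the proenkephalin gene Penk among its leading genes. It held Fgf7 at 101.4 CPM (95% interval 88.9 to 115), Fgf10 at 119 CPM (105 to 134) and Igf1 at 467 CPM (439 to 495). Fgf18 was at 11.1 CPM (7.27 to 16.3) there. In its 2 wells Fgf7 was at 106.9 and 98.4 CPM and Fgf10 at 109 and 124 CPM.

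The other 16-week clusters differed by ligand. A cluster of 279 cells led by Slc7a2 and Sod3 had Fgf7 at 1.17 CPM (0.379 to 2.72) and Fgf10 at 3.50 CPM (1.96 to 5.77), although its Fgfr1 level was 162 CPM. A cluster of 131 cells had the capsular-type fibroblast markers Pi16, Dpp4, Sema3c and Smpd3 among its leading genes, but not Cd55. The medullary-type fibroblast marker Ackr3 was among them too. This cluster held Fgf10 at 87.1 CPM (72.5 to 103.7) and Fgf18 at 25.1 CPM (17.6 to 34.7), the highest Fgf18 level of the 16-week clusters. In its 2 wells Fgf18 was at 37.8 and 15.7 CPM. Fgfr1 was at 398 CPM there, the highest Fgfr1 level of the 10 clusters. The 1-week cluster of 133 cells led by Mfap4 and Cthrc1 exceeded the other 1-week cluster, of 208 cells led by Sele and Col26a1, in Fgf7 (39.0 against 5.69 CPM), Fgf18 (30.0 against 6.88 CPM) and Igf1 (549 against 113 CPM). These values were not tested, since each cluster came from 1 pool, and the 2 clusters of 16-week cells without an Fgf18 UMI included the shallowest one, with a median of 3218.5 UMIs per cell.

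**Figure D3:**
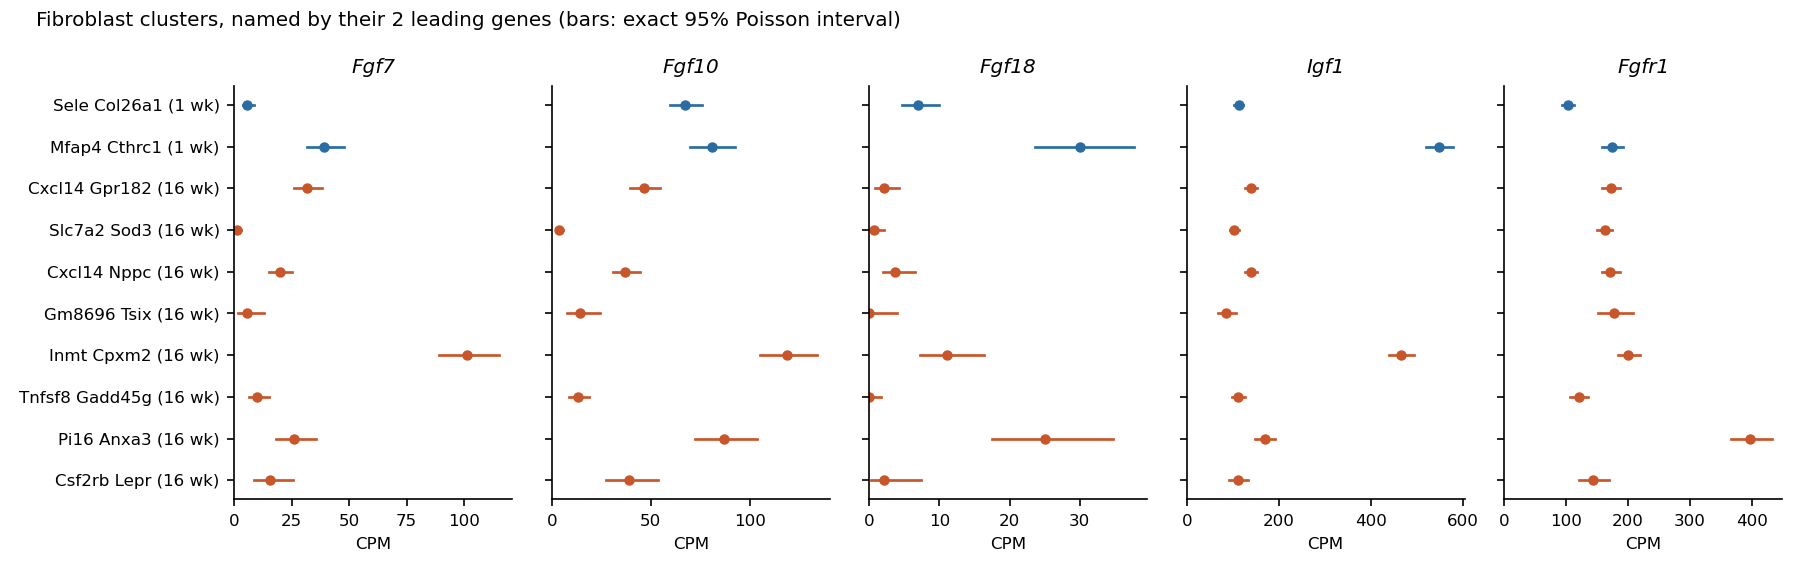
Level of Fgf7, Fgf10, Fgf18, Igf1 and Fgfr1 in CPM (horizontal axis, linear) in the 10 fibroblast clusters, each named by 2 leading genes, with points for the sum of both wells, bars for exact 95% Poisson intervals, and the 1-week clusters in blue and the 16-week clusters in orange. Fgf7 is at 101.4 CPM in the 16-week Inmt cluster and at 1.17 CPM in the Slc7a2 cluster of the same age.

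The receiving side was read from TEC. Intertypical TEC, like fibroblasts, did not spread over the same clusters at both ages. Of its 4 clusters, 2 held cells of both ages (116 of the 127 cells of 1 week and 1130 of the 1813 of 16 weeks), and the other 2, led by Scn1a and Fmod and by Chil3 and Ccl11, held 683 cells of 16 weeks and 11 of 1 week. Each age difference in this class is therefore also one between different clusters, and the values within the 2 shared clusters, an alternative chosen after seeing the data, are given for the members tested there and for list genes where a call changed or the text gives them. All 3 calls of members below were kept there. In cTEC 6 members reached 20 UMIs, of which 3 were called higher at 16 weeks and 0 lower, against 11.1% and 6.55% of 16082 genes (8.34% and 9.25% with TMM scaling, which changed no member's call). In intertypical TEC the numbers were 6, 3 and 0, against 12.5% and 6.61% of 15695 genes, and in mature mTEC 7, 2 and 1, against 9.95% and 4.04% of 17358 genes. The members called higher in cTEC and in intertypical TEC were Fgfr1, Fgfr3 and Igf1 in each, those in mature mTEC Fgf21 and Igf1, and the one called lower in mature mTEC was Fgfr2.

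Fgfr2 changed by less than 2-fold where it was most abundant. In intertypical TEC it was at 115 CPM (97.9 to 134) at 1 week and 104 CPM (99.3 to 109) at 16 weeks, a ratio of 0.907 (0.772 to 1.07), or of 0.983 (0.825 to 1.18) with overlapping wells within its shared clusters, and in cTEC at 62.7 and 73.9 CPM, a ratio of 1.18 (1.03 to 1.34). The share of thinned cells with an Fgfr2 UMI was 18.9% and 18.8% in intertypical TEC and 13.8% and 14.1% in cTEC, against 2.84% and 2.65% in endothelial cells. In mature mTEC it fell from 29.3 to 12.8 CPM and was 2.29-fold lower (1.63 to 3.18). The 8 cTEC markers stood in mature mTEC at a median of 26.9% of their cTEC level at 1 week and 8.81% at 16 weeks (ranges 21.6% to 45.8% and 1.94% to 43.6%, none at 0), and Fgfr2 at 46.8% and 17.3%. Their part in the result was not tested. With predicted doublets kept the log2 ratio of Fgfr2 in mature mTEC went from -1.20 to -1.0, and with TEC clustered without correction between libraries to -0.89, which ended the call.

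Igf1 was called higher at 16 weeks in all 3 TEC classes. In intertypical TEC its wells were at 5.02 and 9.78 CPM at 1 week and at 67.6 and 65.9 CPM at 16 weeks, a ratio of 9.38 (5.08 to 19.6) that rests on 10 UMIs at 1 week. Within the 2 shared clusters they were at 5.29, 9.78, 45.1 and 45.3 CPM (ratio 6.19, 3.32 to 13.05). In cTEC they were at 4.53, 6.30, 27.3 and 22.7 CPM (ratio 4.56, 3.44 to 6.0). In mature mTEC the pools were at 133 and 300 CPM (ratio 2.26, 1.98 to 2.58), just past the limit. Its cluster led by Saa3 held Igf1 at 253 CPM (221 to 289) and 350 CPM (334 to 366), and the one led by Calca at 25.7 CPM (16.7 to 38.0) and 241 CPM (227 to 256). The share of thinned cells with Igf1 went from 3.94% to 10.9% in intertypical TEC and from 11.3% to 20.8% in mature mTEC, beside 3.55% and 8.71% in endothelial cells, and the 16-week intervals of intertypical TEC (9.52% to 12.4%) and endothelial cells (5.6% to 12.8%) overlap.

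Other cells' RNA was set beside these values. At 16 weeks Igf1 in intertypical TEC stood at 39.9% of its fibroblast level, and the 7 fibroblast markers stood there at a median of 2.85% (range 1.76% to 6.68%, none at 0). Against mature mTEC it stood at 22.2%, within the range of the 7 mature mTEC markers in intertypical TEC (median 15.7%, range 8.78% to 42.7%, none at 0), and in cTEC it stood at 8.06% against a median of 11.1%. The 7 intertypical TEC markers in cTEC stood at a median of 13% of their intertypical level at 1 week and of 30.8% at 16 weeks (ranges 2.27% to 39.2% and 10% to 57.6%, none at 0). The part of fibroblasts and of other TEC in the Igf1 and Fgfr1 values of cTEC and intertypical TEC was not tested. Endothelial cells held Igf1 at 29.8 and 31.8 CPM and mural cells at 20.3 and 16.0 CPM. In the cells named haematopoietic Igf1 was called higher as well, from 5.33 to 20.9 CPM (ratio 3.92, 2.13 to 7.07), close to the values of cTEC, and Fgfr1 was at 3.37 and 13.9 CPM with wells that overlapped.

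Fgfr1 was also called higher in cTEC, from 2.95 and 3.85 to 16.8 and 15.4 CPM (ratio 4.73, 3.33 to 6.69), and in intertypical TEC, from 2.51 and 8.15 to 19.8 and 28.1 CPM (ratio 5.11, 2.46 to 12.8). Within the 2 shared clusters of intertypical TEC the Fgfr1 ratio was 5.15 (2.45 to 13.0). At 16 weeks Fgfr1 in intertypical TEC stood at 13.9% of its fibroblast level, beside 1.76% to 6.68% for the 7 fibroblast markers. The part of fibroblast RNA in this value was not tested. The call of Fgfr3 in cTEC rests on 17 and 6 UMIs (ratio 2.55, 0.823 to 6.78) and was lost in each of 7 alternatives, among them without the first 1-week well (log2 1.25 against 1.35), without the second (1.43) and without the second 16-week well (0.43). In intertypical TEC Fgfr3 had 2 and 67 UMIs (ratio 2.98, 0.794 to 25.1) and the call was lost without the second 16-week well (log2 1.04 against 1.58), while the shared clusters gave a log2 ratio of 1.61 from 2 and 30 UMIs. Fgf7 had 0 UMIs in 1-week intertypical TEC and 63 at 16 weeks, or 3.97 CPM, at least 1.87-fold higher when the 1-week pool is set at 3 counts. Of these 63, 39 lay in the Chil3 cluster, which held no cell of 1 week. Fgf7 was called higher with doublets kept, with 20 neighbours, without correction between libraries and without the second 16-week well (log2 values of 1.14 to 2.03).

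In mature mTEC Fgf21 was at 137 CPM (121 to 155) at 1 week and 306 CPM (295 to 318) at 16 weeks, a ratio of 2.24 (1.97 to 2.56). Its share of thinned cells was 12% and 20.7%, beside 2.13% and 4.92% in endothelial cells. In cTEC Fgf21 was at 13.2 and 25.6 CPM, a ratio of 1.93 (1.52 to 2.44) below the limit that passed it by means over cells (log2 1.43), without correction between libraries (1.04) and without the second 1-week well (1.01), and in intertypical TEC at 37.6 and 38.4 CPM, a ratio of 1.02 (0.770 to 1.38), or of 1.45 (1.08 to 1.98) within its shared clusters. Both calls in mature mTEC were lost under some alternatives. Without the first 1-week well the log2 ratio was 0.92 for Fgf21 and 0.94 for Igf1, and without the first 16-week well that of Fgf21 was 0.97, all short of 1.0. The Fgf21 call was also lost with 20 neighbours (0.83) and without correction between libraries (0.70), and the Igf1 call by means over cells (0.94).

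**Figure D4:**
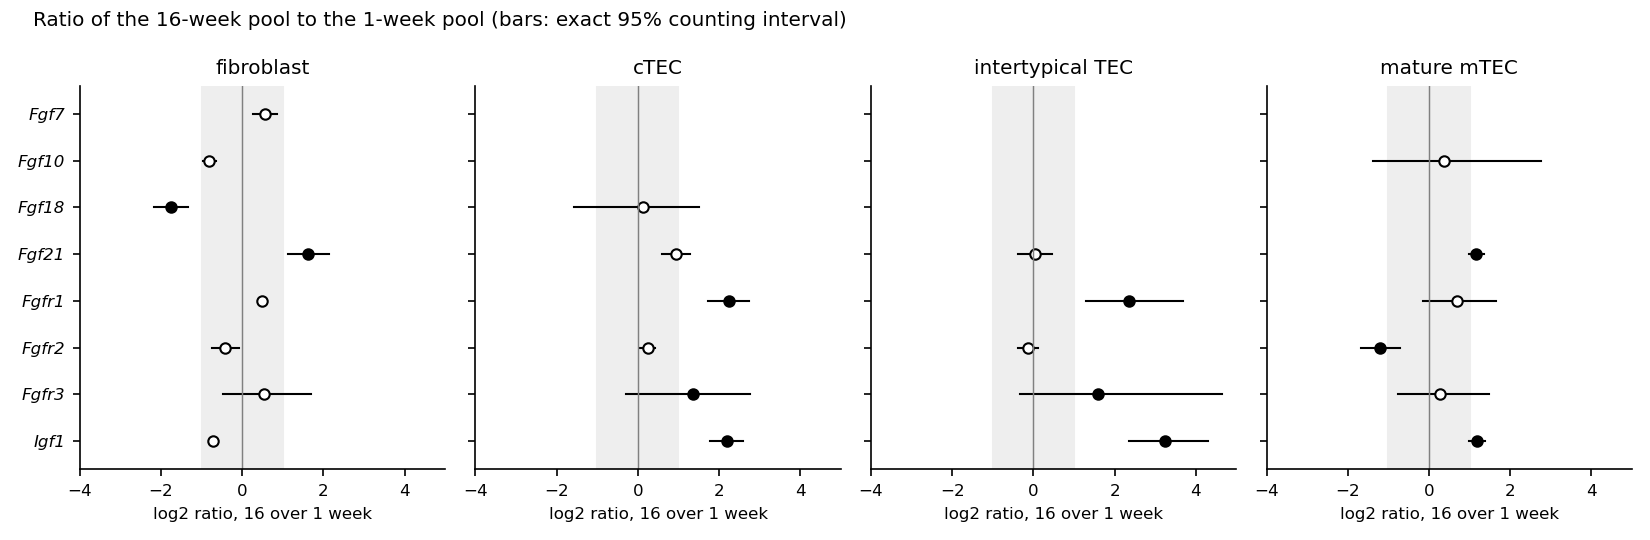
Log2 ratio of the 16-week over the 1-week pool for each member in fibroblasts, cTEC, intertypical TEC and mature mTEC, with bars for exact 95% counting intervals, filled points for calls and a grey band for differences under 2-fold. Members under 20 UMIs in a class, or without a UMI at 1 age, are not drawn. Igf1 has a ratio of 0.610 in fibroblasts and of 4.56, 9.38 and 2.26 in the 3 TEC classes, while Fgfr2 stays within 2-fold in fibroblasts, cTEC and intertypical TEC.

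Rarer TEC also held Igf1 and Fgf21. In the 44 microfold-like mTEC of 16 weeks, named for genes of antigen-sampling gut cells, Igf1 was at 719 CPM (642 to 801) and Fgf21 at 545 CPM (478 to 617). Their wells, of 9 and 35 cells, were at 640.5 and 727.6 CPM for Igf1 and 277.5 and 575.6 CPM for Fgf21. Mature mTEC held Fgf21 at 388.1 and 269 CPM in the same wells, so the order differed between the wells. Tuft-like mTEC of that age held both genes at 42.6 CPM (32.2 to 55.3), with wells at 62.9 and 25.3 CPM for Igf1 and 59.6 and 28.1 CPM for Fgf21. Keratinocyte-like mTEC held Igf1 at 264 CPM and Fgf21 at 50.2 CPM. Their wells, of 19 and 69 cells, were at 72.3 and 303.7 CPM for Igf1 and 39.4 and 52.5 CPM for Fgf21. Proliferating TEC carried Fgf21 at 81.6 and 316 CPM, Igf1 at 11.9 and 122 CPM and Fgfr2 at 58.9 and 19.2 CPM at 1 and 16 weeks. They joined a cluster of 367 cells of both ages and one of 142 cells. The latter had 63 and 78 cells in the 1-week wells and 0 and 1 in the 16-week wells. The age difference in this class is therefore also one between different clusters.

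**Figure D5:**
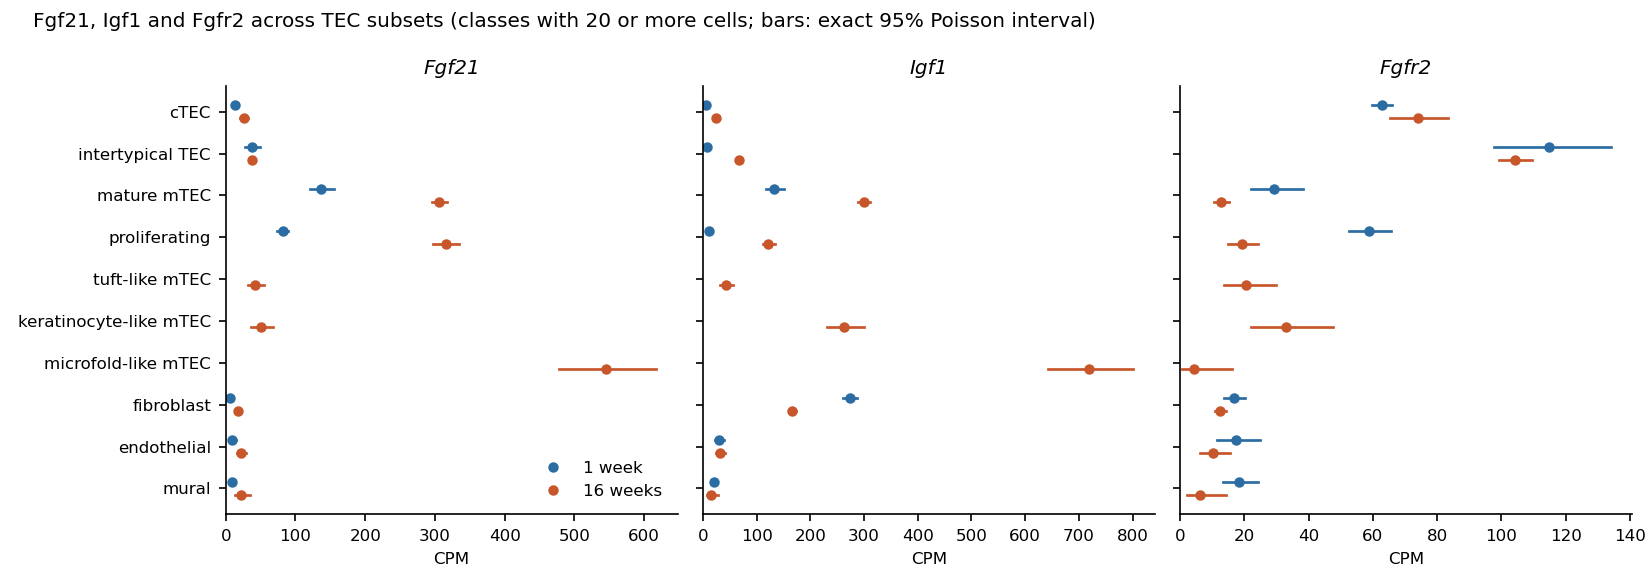
Level of Fgf21, Igf1 and Fgfr2 in CPM (horizontal axis, linear) in TEC classes and, below them, fibroblasts, endothelial and mural cells, for ages with at least 20 cells, with bars for exact 95% Poisson intervals, 1 week in blue and 16 weeks in orange. Microfold-like mTEC of 16 weeks hold Igf1 at 719 CPM and Fgf21 at 545 CPM, the highest pooled levels shown for these genes. In the first 16-week well alone their Fgf21 level (277.5 CPM) was below that of mature mTEC (388.1 CPM).

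The other genes of the pathway were followed in lists of FGF ligands, of FGF receptors and co-receptors, of FGF signal targets and feedback genes, and of the IGF axis. Between fibroblasts and TEC, 7 of 10 tested receptors and co-receptors were higher in fibroblasts and 2 lower, with a median log2 difference of 1.80 against -0.03 over all genes, of which 21.6% were higher and 18.3% lower. The heparan sulphate carriers Gpc6 (4.89 ± 0.33), Hspg2 (3.49 ± 0.17) and Sdc2 (3.39 ± 0.16) led them (adjusted p = 1.70e-06, 2.17e-07 and 1.33e-07), followed by Gpc3 (3.03 ± 0.39) and Gpc4 (2.01 ± 0.23). Of 12 tested targets 9 were higher and 0 lower (median 2.17), among them the feedback inhibitors Spry4 (4.42 ± 0.30), Il17rd (4.0 ± 0.35) and Spry1 (3.54 ± 0.26) and Spred1 (2.68 ± 0.18) and the transcription factor Etv1 (4.02 ± 0.34). Of 9 ligands 2 were higher, Fgf2 (3.87 ± 0.52) and Fgf1 (2.21 ± 0.24), and 4 lower, including Fgf14 (-3.22 ± 0.55), Fgf13 (-3.07 ± 0.68) and Fgf9 (-1.99 ± 0.61). Fgf13 and Fgf14 encode intracellular relatives of the FGFs that are not secreted signals.

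Among 16 tested genes of the IGF axis 9 were higher in fibroblasts and 2 lower. The binding proteins Igfbp7 (4.46 ± 0.24) and Igfbp4 (3.85 ± 0.28), Pappa (4.28 ± 0.18), a protease that cleaves binding proteins, and Igf2 (4.14 ± 0.85) were the highest, with the secreted protease Htra1 next (2.93 ± 0.50). Between cTEC and mature mTEC 5 of the 16 were higher in cTEC and 5 lower, against 21.5% and 23.2% of all genes. The protease genes Pappa2 (-4.91 ± 1.02) and Pappa (-4.18 ± 0.29), Igfals (-4.23 ± 0.45), which encodes the subunit that stabilises circulating IGF1, and Igfbp6 (-2.59 ± 0.49) were lower in cTEC, and Igfbp2 (1.98 ± 0.46) was higher. Of the 12 targets 4 were higher in cTEC, namely the phosphatase Dusp6 (1.95 ± 0.37, adjusted p = 0.00225), Spry1 (1.66 ± 0.39), the transcription factor Etv5 (1.3 ± 0.36) and the adaptor Frs2 (0.63 ± 0.22), and 1 lower, Spry4 (-1.50 ± 0.48). Of 9 ligands, Fgf14 (2.14 ± 0.55) and Fgf11 (1.99 ± 0.61) were higher in cTEC, and the hormone-like ligands Fgf23 (-6.08 ± 1.06) and Fgf15 (-3.12 ± 1.16) were lower. The Fgf23 difference concerned 1 UMI in cTEC and 26 in mature mTEC. The list of receptors and co-receptors had 1 gene higher, Sdc4 (1.35 ± 0.30), of 10. Between cTEC and intertypical TEC 1 of 9 ligands, Fgf14 (3.07 ± 0.58), and 1 of 12 targets, Etv5 (1.47 ± 0.37), were higher and none lower. Of 10 receptors and co-receptors Sdc3 (-2.54 ± 0.30) and of 16 genes of the IGF axis Igfals (-2.39 ± 0.46) and Igfbp4 (-2.32 ± 0.39) were lower and none higher, against 4.68% of all genes higher and 4.19% lower.

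Between ages, 4 of 13 tested target genes were called lower in cTEC and 1 higher, with a median log2 ratio of -0.29 against 0.09 over all genes, of which 6.55% were lower and 11.1% higher. The lower genes were Etv4, Spry4, Spred3 and Dusp6, and the higher one was Il17rd. Etv4, a transcription factor induced by FGF receptors, was at 10.8 and 13.3 CPM in the 1-week wells of cTEC and at 4.41 and 1.22 CPM in the 16-week wells. In intertypical TEC it was at 8.79 and 17.9 against 0.775 and 1.40 CPM. Dusp6, which encodes a phosphatase that ends ERK signals, was at 43.9, 52.4, 27.3 and 19.9 CPM in cTEC (ratio 0.467, 0.367 to 0.585) and at 50.2, 55.4, 18.2 and 16.7 CPM in intertypical TEC (log2 -1.61). Both genes fell in both classes, and within the shared clusters of intertypical TEC Etv4 was at 7.94, 17.9, 1.88 and 2.18 CPM (log2 -2.58 against -3.41) and Dusp6 had a log2 ratio of -1.62.

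The targets did not move as one group. In intertypical TEC Etv4 and Dusp6 were the 2 genes called lower of 11 tested and 0 were higher, against 6.61% and 12.5% of all genes, and the median was 0.00 against 0.06. Fibroblasts had 2 of 13 higher and 0 lower, against 10.1% and 7.83%, Etv1 (54.1 and 67.7 against 168 and 177 CPM) and Frs3, with Dusp6 at 65.0, 70.1, 68.4 and 68.2 CPM. Mature mTEC had 2 of 12 lower, Spry1 and Il17rd, and 0 higher, against 4.04% and 9.95%.

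Ligands outside the member list were called in both directions. In cTEC 3 of 7 tested were higher and 0 lower, against 11.1% and 6.55% of all genes, and in intertypical TEC 4 of 8 were higher and 1 lower, against 12.5% and 6.61%. Fibroblasts had 2 higher and 2 lower of 8, against 10.1% and 7.83%, and mature mTEC 1 higher and 2 lower of 12, against 9.95% and 4.04%. Fgf9, a secreted ligand, was at 1.17 and 1.05 CPM in 1-week and 30.9 and 15.01 CPM in 16-week cTEC, and at 5.02, 8.15, 33.3 and 42.9 CPM in intertypical TEC. It was also called higher in fibroblasts (log2 1.36). Fgf1 was called higher in fibroblasts (39.1 and 37.2 against 86.9 and 79.4 CPM), cTEC (5.49 and 4.64 against 29.1 and 28.0 CPM) and intertypical TEC (3.77 and 6.52 against 26.6 and 27.1 CPM). Within the shared clusters of intertypical TEC the log2 ratios were 2.11 for Fgf9, 1.94 for Fgf1 and 1.42 for Fgf13, and all 3 stayed called.

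Fgf14 was called lower in 3 of the 4 classes. It fell in intertypical TEC from 74.1 and 63.5 to 8.72 and 8.98 CPM (log2 -2.97, and -3.03 within the shared clusters), the ligand of that list with the largest change there. In fibroblasts it fell from 15.3 and 18.3 to 1.65 and 1.81 CPM (log2 -3.26), and in mature mTEC from 64.8 and 73.8 to 35.9 and 27.9 CPM (log2 -1.18). In cTEC, where it was most abundant, it was at 220.0, 229.1, 117.3 and 162.7 CPM and was not called. The 8 cTEC markers stood in intertypical TEC at medians of 20.65% and 5.73% of their cTEC level at 1 and 16 weeks. Their medians were 10.4% and 1.28% in fibroblasts and 26.9% and 8.81% in mature mTEC. The part of cTEC RNA in the Fgf14 changes was not tested. Fgf12, like Fgf14 a relative that is not secreted, fell in fibroblasts (log2 -1.3, 30 UMIs), and Fgf23 fell in mature mTEC (log2 -2.15, 26 UMIs). The remaining calls were higher at 16 weeks, Fgf13 in cTEC (log2 2.35) and intertypical TEC (1.73), Fgf16 in intertypical TEC (1.68, 37 UMIs, of which only 10 lay in the shared clusters) and Fgf3 in mature mTEC (1.68, 88 UMIs).

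Of the receptors and co-receptors, 1 of 11 was higher and 1 lower in fibroblasts, against 10.1% and 7.83% of all genes, 2 of 10 higher and 0 lower in cTEC, against 11.1% and 6.55%, 1 of 11 higher and 0 lower in intertypical TEC, against 12.5% and 6.61%, and 1 of 11 higher and 1 lower in mature mTEC, against 9.95% and 4.04%. Its gene Gpc3, a glypican, fell in fibroblasts from 202 and 215 to 49.6 and 37.9 CPM and in mature mTEC (log2 -1.28). The syndecan Sdc1 rose in cTEC from 14.96 and 14.5 to 60.9 and 58.0 CPM and in intertypical TEC from 27.6 and 29.3 to 77.1 and 85.4 CPM. Within the shared clusters of intertypical TEC the log2 ratio of Sdc1 was 1.39, and Sdc4, not called in the whole class, was called lower (-1.01). Sdc2 was called higher in cTEC (log2 1.3), Sdc3 in mature mTEC (1.46) and the receptor gene Fgfr4 in fibroblasts (1.77, 74 UMIs).

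In the IGF axis Igf2, the fetal insulin-like growth factor, fell in fibroblasts from 46.8 and 78.3 CPM to 0.330 and 0.549 CPM, the lowest ratio among the called genes of the lists (log2 -7.02). Igfbp3, the main carrier of IGFs in blood, fell there from 193 and 252 to 43.5 and 38.1 CPM, and Igfbp6 rose from 106 and 107 to 422 and 375 CPM. Pappa2 (log2 -2.65) and Irs2 (-1.24) fell too. In total 3 of 16 rose and 4 fell in fibroblasts, against 10.1% and 7.83% of all genes. In cTEC 6 of 15 were higher and 0 lower, against 11.1% and 6.55%, with Igfbp5 at 20.1 and 28.5 CPM at 1 week and 849 and 672 CPM at 16 weeks. Htra1 rose there from 16.6 and 15.8 to 141.1 and 150.5 CPM, and Igfals (log2 2.23), Igfbp7 (1.98) and Igfbp4 (1.78) were called higher. The intertypical TEC markers in cTEC, whose median went from 13% to 30.8% of their intertypical level, moved with these genes and with Fgf9, Fgf1, Fgf13 and Sdc1 in cTEC, and their part in these changes was not tested. Intertypical TEC had 6 of 14 higher and 1 lower, against 12.5% and 6.61%, the lower one being the insulin receptor substrate Irs2 (137 and 194 against 47.9 and 45.5 CPM), and the higher ones including Igfbp5 (log2 1.73), Igfbp6 (1.67), Igfbp3 (1.56) and Igfbp4 (1.16). Within the shared clusters the calls of Igfbp3 (log2 0.10) and Igfbp4 (0.77) were lost and Igfbp2 was called lower (-1.49, from 128.5 to 45.8 CPM), so that 4 were higher and 2 lower, with Igfbp5 at 1.74, Igfbp6 at 2.27 and Irs2 at -1.47. Mature mTEC had 2 of 16 higher, Igfbp5 (1.70) and Igfbp4 (1.23), and 1 lower, Igfbp2 (-1.2), against 9.95% and 4.04%.

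Finally, the genes whose levels ran most like each member were taken over 44 units of class and library with at least 20 cells, as Pearson's r of log2(CPM + 10) among 15548 genes. These units share libraries and differ in depth and class, so the values are descriptions. Fgf10 was most like Steap3 and Tspan11 (r = 0.925 for each) and Qpct (0.921), and Fgf7 most like Pi16 (0.923), Scara5 (0.913) and Gm10710 (0.902). For Fgf18 the genes were Armh4 (0.901), Tmem119 (0.895) and Prss12 (0.891), and for Fgf21 Plb1 (0.944), Syt1 (0.932) and Gm47938 (0.931). Among the receptors, Fgfr1 ran with Bgn (0.928), Zbtb20 (0.910) and Cd302 (0.903), Fgfr2 with Trim29 (0.910), Lpcat2 (0.891) and Kctd1 (0.885), and Fgfr3 with S1pr1 (0.916), Afap1l1 (0.897) and Pik3r6 (0.895). Igf1 had no gene as close, with Trf at 0.810, Scamp2 at 0.779 and Sel1l at 0.769, and was the member with high levels in mesenchymal and in epithelial classes.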

How the data were processed

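The 4 mRNA libraries (2 wells for each of 2 ages) and the 4 matching antibody-tag libraries were used. According to their notes, the authors aligned reads to mm10 with STARsolo 2.7.9a and deposited raw UMI counts per gene and cell and raw counts of 27 surface tags per cell. The deposited cells had at least 2000 UMIs, and the strand setting was taken to be the tool's default. The labels name version 2 and the methods version 3 of the 3′ kit. No cell names by the authors were used here. Of the gene identifiers, 55141 matched a GENCODE M21 symbol and 346, with 0.031% of UMIs, did not.

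Library totals were 31917364 and 25654110 UMIs at 1 week (1846 and 1430 cells) and 21281389 and 45480790 at 16 weeks (1939 and 4738 cells). Doublets were scored with scrublet in scanpy 1.11.5. Its own limit found only 14, which was taken as a failure, and 253 cells (2.54%) of the highest scores were removed instead, at 0.8% per 1000 cells. Cells were clustered with igraph 0.11.9 on 30 principal components of 2000 variable genes, with 10 neighbours, leaving out the members and pathway lists. Clusters were named where at least 3 markers were present in 10% of cells. Epithelial cells were re-clustered after a mutual nearest neighbour (MNN) correction between libraries, each split into cells above and up to 12000 UMIs. Of the resulting clusters, those whose median cell had fewer than 3000 UMIs were then dropped.

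Classes were compared with edgeR 4.0.16 in R 4.3.3 (quasi-likelihood test, TMM scaling, filterByExpr, pool as block, two-sided, 5 residual degrees of freedom, Benjamini-Hochberg threshold 0.05). An SE is the absolute log2 difference divided by the square root of F. Ages were compared by size alone, with exact Poisson and exact conditional 95% intervals (scipy 1.17.1). The 2-fold rule also needed 20 UMIs and wells that do not overlap. For surface-tag classes, a 2-component mixture (scikit-learn 1.9.0) on log2(count + 1) set limits for EpCAM1 and CD31. At 16 weeks the CD31 limit fell at 0.0 counts, so any CD31 count passed. The calculations were tested on simulated data.

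All 8 members were named in every class, and from each pathway list up to 5 called genes of largest log2 difference per comparison; Dusp6 in fibroblasts and Fgf14 in cTEC between ages were given beyond this rule. The members, marker lists, pathway lists and motifs were chosen with earlier results of these data known. The doublet rate, naming rules, depth limit, correction and tag scaling were set with the data in view, as were 3 added alternatives. Alternatives otherwise covered doublets, depth, clustering, scaling, filters, cell means, DESeq2 1.42.0, the block and each well left out.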

Additional observations from a re-analysis of the deposited data

Results flagged for a closer look

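Among fibroblasts, cTEC, intertypical TEC and mature mTEC, the direction of the age difference was opposite between classes in every well for 2 members. These differences of log2 ratios (16 over 1 week) were not tested, because there was 1 pool per age. For Igf1, both 16-week fibroblast wells lay below both 1-week wells while the TEC wells lay above, so that the log2 ratio in fibroblasts minus that in cTEC was -2.90, minus that in intertypical TEC -3.94 and minus that in mature mTEC -1.88. For Fgfr2, the ratio in fibroblasts minus that in cTEC was -0.66, the ratio in cTEC minus that in intertypical TEC was 0.38, and the ratio in cTEC minus that in mature mTEC was 1.44. From 1 to 16 weeks the median of the 8 cTEC markers, relative to cTEC, went from 10.4% to 1.28% in fibroblasts and from 26.9% to 8.81% in mature mTEC. Their part in the Fgfr2 values was not tested. The intertypical wells of Fgfr2 were only just apart (110.5 against 109.5 CPM for the nearest), and within the intertypical TEC clusters that hold both ages they overlapped (105.9 and 120.6 against 122.5 and 105.0 CPM), so that the opposite direction there was lost. Outside these classes, Fgfr1 in endothelial cells was at 25.9 and 31.5 CPM in the 1-week wells and at 18.3 and 17.6 CPM in the 16-week wells, whereas its 16-week wells lay above the 1-week wells in fibroblasts, mural cells and the 3 TEC classes, and this difference was not tested either.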

How the results depend on the processing

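Of the age values of single members under alternatives, 371 kept their call status, 17 lost a call and 17 gained one, and of the class values 356 kept theirs, 15 gained and 3 lost significance, and 4, all from surface-tag classes, moved. Surface-tag classes had no test. A value of theirs, Igf1 among them, was counted as kept when its mean over the libraries lay within 1 SD of the fitted difference. In fibroblasts against TEC the 7 called members kept their direction under each alternative in which they could be fitted, and Fgf18 could not be fitted per library or without the first 16-week well. The values that turned direction had not passed the test. They were Fgfr3 in fibroblasts against TEC without the second 16-week well (leave-one-out range -0.64 to 0.02), and in cTEC against mature mTEC Fgf7 (range -1.30 to 0.05), Fgf18 (range -0.76 to 0.17, and 0.12 with 20 neighbours) and Fgfr1 (0.19 with 20 neighbours and 0.67 without correction between libraries, an alternative added after seeing the data). In cTEC against intertypical TEC they were Fgf10 (range -1.90 to 0.11) and Fgf18 (range -0.16 to 0.91). The cause was not tested. The number of genes called between cTEC and intertypical TEC was 1444, and it was 928 with members and lists kept in the clustering, 2608 with doublets kept, 29 without the pool block, 4120 where each library was summed and served as the replicate block, and 847 to 1469 with a well left out, lowest without the second 16-week well. Members called lower there went from 0 to 2 with doublets kept and without correction, 1 with 20 neighbours and (Fgf21, -1.23, adjusted p = 0.0128) with intertypical TEC reduced to its 2 shared clusters, 3 with no filter and 6 with the library block. Over all genes these settings had, in this order, 7.31%, 3.42%, 5.71%, 7.36%, 3.71% and 16.9% lower. The library block, given by wells of 1 pool, tested 7 members in 13110 genes and changed no other member's call in the other comparisons. Between ages, members called lower were 3 in fibroblasts at 1.5-fold (with Fgf10 and Igf1), against 14% of all genes. In cTEC 1 was called lower by means over cells (9.86% of genes) and in intertypical TEC 1 with no minimum (5.69%). In mature mTEC 0 were lower with doublets kept (3.99%) or without correction (3.26%). Members called higher in mature mTEC were 1 by means over cells (11.3% of genes), 4 at 1.5-fold (16.3%) and 0 to 2 with a well left out (9.08% to 13.4%). DESeq2 size factors shifted the median over all genes in cTEC against mature mTEC (log2) from 0.05 to -0.16, and TMM took the median age ratio in cTEC from 0.088 to -0.116, with no call of a member changed by either. Depth limits Fgf7, Fgf10, Fgf18 and Fgfr3 in TEC, where sums per pool were often under 20 UMIs.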
